A study of Mus musculus with 4 samples.

Results

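Lamb1, Sdc4, Frmd5, Tnni1 and Dpysl5 encode proteins of the extracellular matrix, the cell surface and the cytoskeleton, and were chosen by large differences in their counts between natural killer (NK) cells from Tcf7 knock-out (KO) and wild-type (WT) mice. They are 5 of the 26611 genes counted in the series. The study sequenced RNA of spleen NK cells from 2 KO mice and 2 WT mice of the C57BL/6 background, with 1 library per animal and no treatment named in the labels. Cells were sorted as TCRbeta-NK1.1+NKp46+CD11b+KLRG1+, a gate for mature NK cells, which are innate lymphocytes that kill target cells. Tcf7 encodes the DNA-binding protein Tcf-1, and the labels do not say how the KO allele was made, nor the age or sex of the animals. Because the difference between KO and WT libraries picked the 5 genes, their levels and differences are given here as a description with no test.

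Laminins are cross-shaped trimers of an alpha, a beta and a gamma chain that build basement membranes, the thin matrix sheets under epithelia and around vessels, and Lamb1 encodes a widely used beta chain. Sdc4 encodes syndecan-4, a transmembrane core protein that carries heparan sulphate chains and works beside integrins where cells grip the matrix. Frmd5 belongs to the FERM domain family, whose members tie membrane proteins to the actin cytoskeleton. Tnni1 encodes the troponin I of slow skeletal muscle, the subunit that holds actin and myosin apart until calcium rises. Dpysl5 encodes a collapsin response mediator protein (CRMP), a family best known in neurons, where its proteins bind tubulin and shape outgrowing axons and dendrites.

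Since the KO removes a factor that binds DNA, the 250 bases before the transcript start of each gene were searched for CTTTGA and CTTTGT on both strands, the core letters that TCF/LEF factors bind. These motifs share their first 5 letters, so a stretch can match only 1 of them on a strand. Sequences come from RefSeq (GRCm38.p6), which gave 6 start sites for the 5 genes, and 2 of the 6 windows held a match, against 27.6% of all 32851 windows of this length. The 2 Tnni1 windows overlap, so the 6 are not separate stretches. The share of G and C letters ran from 58.4% to 68.0% in the 6 windows, against a median of 52.4% over all windows. Its part in the matches was not tested. The windows of Dpysl5 (chr5:30711314-30711563, plus strand) and Sdc4 (chr2:164443189-164443438, minus strand) are shown because these genes stood lower in KO cells, and that of Tnni1 (chr1:135799171-135799420, plus strand) because it held the other match. Capitals mark a motif.
Dpysl5: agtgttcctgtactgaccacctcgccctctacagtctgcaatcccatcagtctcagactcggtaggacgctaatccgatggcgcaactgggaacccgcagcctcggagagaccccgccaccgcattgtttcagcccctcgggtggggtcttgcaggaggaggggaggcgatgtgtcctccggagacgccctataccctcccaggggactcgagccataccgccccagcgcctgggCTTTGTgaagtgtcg
Sdc4: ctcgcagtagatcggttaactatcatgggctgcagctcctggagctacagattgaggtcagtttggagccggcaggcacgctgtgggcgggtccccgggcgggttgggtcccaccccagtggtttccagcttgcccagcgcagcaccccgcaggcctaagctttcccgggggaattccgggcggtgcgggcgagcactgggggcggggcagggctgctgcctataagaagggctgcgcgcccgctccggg
Tnni1: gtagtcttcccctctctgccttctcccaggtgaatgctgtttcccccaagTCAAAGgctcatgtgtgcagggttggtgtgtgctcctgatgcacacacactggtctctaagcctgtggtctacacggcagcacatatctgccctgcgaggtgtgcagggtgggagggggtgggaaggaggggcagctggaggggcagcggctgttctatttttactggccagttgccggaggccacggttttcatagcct
The Dpysl5 window held CTTTGT on the strand of the gene, beginning 15 bases before the start, and the first Tnni1 window held CTTTGA on the opposite strand, 200 bases before the start. That Tnni1 start lies inside the annotated span of the gene. The windows of Sdc4, Frmd5 and Lamb1 and the second Tnni1 window held neither motif. A match describes the letters only and does not show binding.

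The libraries held 28254693 and 37384979 counts (KO) and 31860505 and 40175537 counts (WT), so that 1 CPM (the count scaled to library size with TMM factors) stood for 29.3 to 39.3 counts. Tcf7 itself (chromosome 11, 52246527 to 52283383) was counted 328 and 903 times in the KO libraries, against 2908 and 3106 times in the WT libraries, so the KO libraries kept 13.3% and 29.7% of the mean WT level. All 15 NK cell markers passed the filter on low counts, and their summed level was 45100 and 36200 CPM in KO libraries, against 42400 and 35400 CPM in WT libraries. Libraries with the same number also resembled each other. In genes of 4500 bases or more, the median log2 difference of library 2 over library 1 was 0.65 among KO libraries and 0.47 among WT libraries, and in genes under 1500 bases it was -0.46 among KO and -0.31 among WT libraries. In bulk RNA, fewer cells of a type and less RNA per cell cannot be told apart. Nothing says whether the animals of a group were littermates, so p-values measure the spread between these libraries.

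Lamb1 (Entrez gene 16777, chromosome 12, 31265146 to 31329644, plus strand, mm10) was almost silent in WT cells and stood higher in both KO libraries. It was counted 119 and 785 times in KO libraries, against 15 and 15 times in WT libraries. Its level was 4.06 CPM (95% Poisson interval 3.36 to 4.85, which covers counting error only) and 21.8 CPM (20.3 to 23.3) in KO libraries, against 0.461 CPM (0.258 to 0.761) and 0.382 CPM (0.214 to 0.630) in WT libraries. The groups did not overlap, but the KO libraries differed from each other 5.37-fold, far more than counting error allows. The means were 12.9 ± 12.5 CPM in KO and 0.422 ± 0.0563 CPM in WT cells (SD, n = 2 each). The edgeR log2 difference of KO minus WT was 4.93, the 20th highest of the 12723 genes tested, and it was 3.29 without KO library 2 and 5.68 without KO library 1. On the length-adjusted scale Lamb1 lay above 27.3% of tested genes in KO cells and above 1.67% in WT cells. With 5778 bases in the authors' table it is a long gene, and its log2 difference of library 2 over library 1 was 2.42 in KO and -0.27 in WT cells, against the medians of 0.65 and 0.47 for genes of 4500 bases or more. The part of gene length in the spread of the members was not tested.

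Sdc4 (Entrez gene 20971, chromosome 2, 164424247 to 164443188, minus strand) had the smallest difference of the 5 and the tightest replicates among KO libraries. It stood at 12.3 CPM (11.1 to 13.6) and 14.9 CPM (13.7 to 16.2) in KO libraries, against 46.0 CPM (43.7 to 48.4) and 38.7 CPM (36.8 to 40.7) in WT libraries. Both KO libraries were lower than both WT libraries by at least 2.59-fold. The mean was 13.6 ± 1.85 CPM in KO and 42.3 ± 5.16 CPM in WT cells (SD, n = 2 each), a log2 difference of -1.64. Counts of 361 and 538 in KO libraries and of 1495 and 1520 in WT libraries made Sdc4 the most deeply counted of the 5 genes in WT cells. Sdc4 RNA was therefore still present in KO cells, above 41.4% of tested genes on the length-adjusted scale, against 65.6% in WT cells.

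Frmd5 (Entrez gene 228564, chromosome 2, 121545529 to 121807087, minus strand) stood higher in KO cells, with wide spread in both genotypes. Its level was 8.69 CPM (7.65 to 9.82) and 20.8 CPM (19.4 to 22.4) in KO libraries, against 3.05 CPM (2.47 to 3.71) and 0.891 CPM (0.621 to 1.24) in WT libraries. The highest WT library was 2.85-fold below the lowest KO library, while WT libraries differed 3.42-fold and KO libraries 2.40-fold among themselves. The means were 14.8 ± 8.58 CPM in KO and 1.97 ± 1.52 CPM in WT cells (SD, n = 2 each). The log2 difference was 2.91 over all 4 libraries, 4.04 without WT library 1, 2.29 without WT library 2, and 2.18 without KO library 2. KO library 1 stood above WT library 1 by 1.51 on the log2 scale, and KO library 2 above WT library 2 by 4.55, so the size of the Frmd5 difference depended on which animals were set side by side.

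Tnni1 (Entrez gene 21952, chromosome 1, 135783033 to 135810989, plus strand) showed the widest gap between the genotypes. It was counted 728 and 518 times in KO libraries, against 32 and 43 times in WT libraries. Its level was 24.8 CPM (23.0 to 26.7) and 14.4 CPM (13.1 to 15.7) in KO libraries, against 0.984 CPM (0.673 to 1.39) and 1.09 CPM (0.792 to 1.47) in WT libraries. The lowest KO library was 13.1-fold above the highest WT library. The means were 19.6 ± 7.39 CPM in KO and 1.04 ± 0.0780 CPM in WT cells (SD, n = 2 each), a log2 difference of 4.23, and 3.78 without KO library 1. Tnni1 is a short gene of 1114 bases in the authors' table, and its log2 difference of library 2 over library 1 was -0.79 in KO and 0.15 in WT cells.

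Dpysl5 (Entrez gene 65254, chromosome 5, 30711564 to 30799369, plus strand) was nearly lost from KO cells. It was counted 9 and 15 times in KO libraries, against 165 and 249 times in WT libraries. Its level was 0.307 CPM (0.140 to 0.582) and 0.416 CPM (0.233 to 0.686) in KO libraries, against 5.07 CPM (4.33 to 5.91) and 6.34 CPM (5.57 to 7.18) in WT libraries. The groups were at least 12.2-fold apart and each was even, with 0.361 ± 0.0773 CPM in KO and 5.71 ± 0.893 CPM in WT cells (SD, n = 2 each). The log2 difference was -3.96, the 6th lowest of the genes tested. Few KO counts set the precision of this value, and adding a prior count of 2 gave -3.77.

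**Figure D1:**
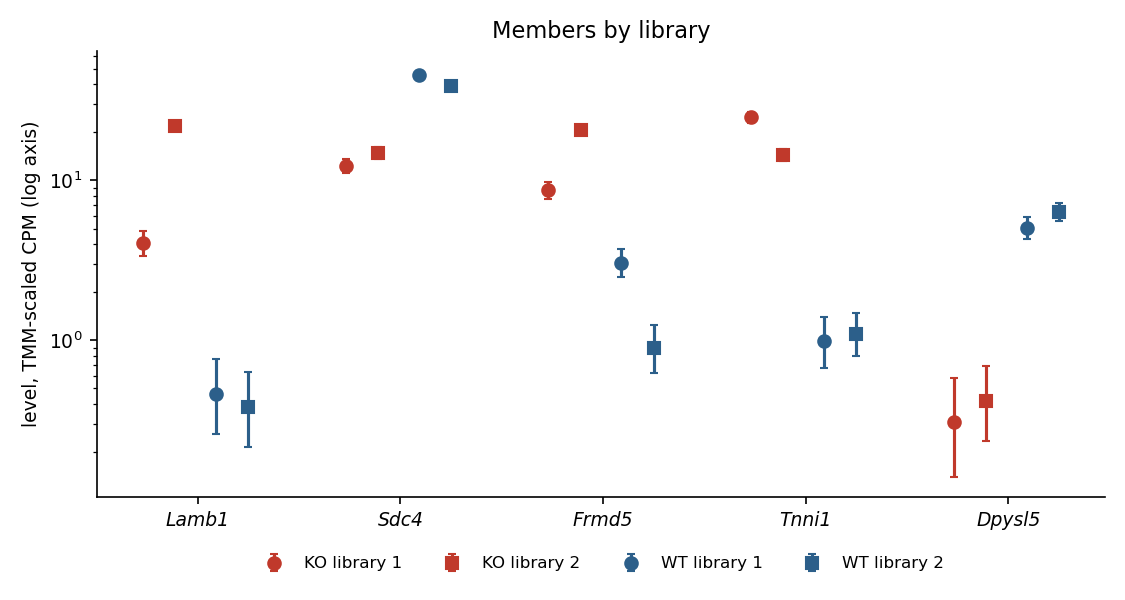
Level of each member in every library, in TMM-scaled CPM on a log axis, with KO libraries in red left of WT libraries in blue, circles for library 1, squares for library 2, and bars for the 95% Poisson interval of the count. Lamb1, Frmd5 and Tnni1 stand higher in both KO libraries, Sdc4 and Dpysl5 lower, and Lamb1 spreads from 4.06 to 21.8 CPM among KO libraries.

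All 5 genes passed the filter on low counts, and in all 5 the KO libraries lay on 1 side of the WT libraries. That held for 21.2% of all 12723 genes tested (9.64% with KO higher and 11.6% with KO lower), and nothing is read from it here because the same contrast chose the 5. Of all genes tested 48.2% had a log2 difference above 0, and 5.72% had one of 1 or more in size. Compared per length, in RPKM (TMM-scaled CPM per kilobase of gene length), the order of the genes differed between the genotypes. In KO cells Tnni1 came first with 22.3 and 12.9 RPKM, followed by Sdc4 with 5.0 and 6.06 RPKM, Frmd5 with 2.07 and 4.96 RPKM, Lamb1 with 0.702 and 3.77 RPKM and Dpysl5 with 0.0611 and 0.0828 RPKM. Frmd5 and Lamb1, neighbours in that order, overlapped. In WT cells Sdc4 came first with 18.7 and 15.7 RPKM, followed by Dpysl5 with 1.01 and 1.26 RPKM, Tnni1 with 0.883 and 0.982 RPKM, Frmd5 with 0.725 and 0.212 RPKM and Lamb1 with 0.0798 and 0.0661 RPKM. No neighbours overlapped in WT cells, although Dpysl5 and Tnni1 came within 1.01 and 0.982 RPKM of each other.

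The genes whose profile over the 4 libraries was most like each member were found by the root mean square difference of mean-centred log2 CPM among 11014 genes with a mean of at least 1 CPM. The profile of Tnni1 was closest to that of Anxa8 (0.19 log2 units), which stood at 233 and 150 CPM in KO libraries, against 13.8 and 11.9 CPM in WT libraries. Sdc4 was closest to Sh3bp4 (0.14 log2 units), with 0.954 and 0.887 CPM in KO libraries, against 3.48 and 2.93 CPM in WT libraries, and next to the co-stimulator gene Icos (0.19). The nearest profiles to Dpysl5 were those of the Ly49 receptor gene Klra1 (0.46) and the adhesion receptor genes Adgrl4 (0.50) and Adgrg5 (0.52). Frmd5 had Tppp3 (0.41), Bhlhe41 (0.44) and Tbc1d4 (0.58) closest, and Lamb1 had an immunoglobulin variable segment, Igkv17-121 (0.50), then Coch (0.61) and Trim58 (0.80). Among the members Lamb1 and Frmd5 (0.94) were nearest to each other, and Lamb1 and Dpysl5 (4.11) farthest apart. With 4 libraries these distances are a description, and the genes were also ordered by the contrast that chose the members.

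Other laminin chain genes were mostly silent. Of the 11 laminin chain genes, 3 passed the filter, namely Lamb1, Lamb3 and Lamc1, and none of the 5 alpha chain genes did, with no library above 0.205 CPM. Lamc1, the gamma chain that joins Lamb1 in common laminins, stood at 15.6 and 53.3 CPM in KO libraries, against 6.06 and 21.5 CPM in WT libraries. The groups overlapped and Lamc1 did not pass (log2 difference 1.32, SE 0.86, edgeR adjusted p = 1.00). Without KO library 2 its log2 difference was 0.21, and without WT library 2 it was 2.52. The second beta chain gene tested, Lamb3, had nearly equal levels, 4.06 and 4.08 CPM in KO libraries and 4.18 and 4.33 CPM in WT libraries (log2 difference -0.07, SE 0.29). Lamb2 reached at most 0.254 CPM in any library.

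Genes of basement membranes and other matrix were mostly silent, with 6 of 32 passing the filter and 0 called by edgeR or DESeq2. Over all genes tested edgeR called 0% and DESeq2 0.558% (0.377% higher and 0.181% lower in KO), and in edgeR 2.84% had an unadjusted p under 0.05 (1.7% higher and 1.14% lower). Agrn, which encodes the heparan sulphate proteoglycan agrin, stood at 7.02 and 9.62 CPM in KO libraries, against 14.6 and 27.3 CPM in WT libraries. The log2 difference of Agrn was -1.33 (SE 0.40), which did not pass (edgeR adjusted p = 1.00, unadjusted p = 0.0248). It was -1.72 without WT library 1 and -0.80 without WT library 2. Col1a2, a fibrillar collagen chain gene, had the highest log2 difference of the 6 (1.62, SE 0.73, edgeR adjusted p = 1.00), at 1.23 and 2.41 CPM in KO libraries, against 0.307 and 0.865 CPM in WT libraries. Emilin2, an elastin-associated glycoprotein gene with the highest mean CPM of the 6, stood at 21.4 and 55.4 CPM in KO libraries, against 10.8 and 28.6 CPM in WT libraries (log2 difference 0.96, SE 0.68). Of 8 laminin receptor genes 6 passed the filter, with log2 differences from -0.13 to 0.22, while Itga7 and Bcam had 0 to 3 counts in each library. Itgb1, the beta integrin chain of most laminin receptors, stood at 1267 and 1496 CPM in KO libraries and at 1422 and 1612 CPM in WT libraries (log2 difference -0.13, SE 0.21), Rpsa, which encodes a ribosomal protein that also binds laminin, differed by 0.22 on the log2 scale, and 0 of the 6 were called.

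Of 12 syndecan, glypican and syntenin genes 5 passed the filter, and the 4 other than Sdc4 overlapped between the genotypes, with 0 called. Sdc3, another syndecan gene, stood at 11.1 and 5.21 CPM in KO libraries and at 7.54 and 5.73 CPM in WT libraries (log2 difference 0.30, SE 0.46). Sdc1 and Sdc2 stayed at or below 0.308 CPM in every library. The glypican gene Gpc1 had 225 and 507 CPM in KO libraries, against 330 and 575 CPM in WT libraries (log2 difference -0.31, SE 0.50). Sdcbp, which encodes syntenin, the adaptor that binds the syndecan tail, had 1012 and 790 CPM in KO libraries and 1008 and 810 CPM in WT libraries (log2 difference -0.01, SE 0.24). Of 24 genes that build or edit heparan sulphate, 18 were tested and 0 called, 5 had a log2 difference above 0, and the median was -0.21, beside -0.01 over all genes tested. Highest in mean CPM were the sulphatase gene Sulf2 (log2 difference -0.19, SE 0.61) and the linker enzyme gene B3gat3 (0.12, SE 0.22). Of 23 focal adhesion genes 18 were tested and 0 called, with a median of 0.02. Zyx (log2 difference -0.08, SE 0.54) and Tln1 (-0.02, SE 1.07), highest in mean CPM among them, encode zyxin and talin. Tln1 parted by library number instead, with 291 and 1758 CPM in KO libraries and 404 and 1674 CPM in WT libraries.

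Of 8 troponin genes Tnni1 alone passed the filter. The other 7 troponin genes had at most 0.280 CPM in any library, and that level, for Tnnt3, was in WT library 2. Troponin T and C partners of Tnni1 in slow muscle, Tnnt1 and Tnnc1, had at most 0.0555 CPM. Tropomyosins are the filament proteins on which troponin sits in muscle, and their genes also give non-muscle isoforms, which counts per gene cannot tell apart. Tpm3 stood at 666 and 668 CPM in KO libraries and at 767 and 626 CPM in WT libraries (log2 difference -0.06, SE 0.21), and Tpm4 at 416 and 524 CPM in KO libraries and at 459 and 427 CPM in WT libraries (0.09, SE 0.22). Tpm1 differed by 0.08 (SE 0.22) on the log2 scale. In all, 4 of 11 tropomyosin and tropomodulin genes were tested and 0 called. Of 17 striated muscle markers, 15 were below 1 CPM in every library and Myh1, Myh2, Mb and Myl2 had no count. Their summed level was 7.63 and 5.77 CPM in KO libraries, against 7.32 and 9.19 CPM in WT libraries. Highest in mean CPM, Mylpf stood at 4.02 and 3.41 CPM in KO libraries, against 5.01 and 6.11 CPM in WT libraries. Ckm, the next highest, stood at 2.045 and 0.7487 CPM in KO libraries, against 0.8919 and 1.171 CPM in WT libraries. The part of muscle cells in Tnni1 was not tested.

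Of 26 FERM domain genes 23 were tested, and of the 22 other than Frmd5 DESeq2 called 1, Ptpn3. Ptpn3, which encodes a protein tyrosine phosphatase with a FERM domain, was higher in KO cells, with 7.87 and 9.01 CPM in KO libraries, against 2.06 and 1.99 CPM in WT libraries. Its log2 difference was 2.06 (SE 0.29), with a DESeq2 adjusted p of 1.47e-04 and an edgeR adjusted p of 0.957. DESeq2 lost this call without any 1 of the 4 libraries (adjusted p = 0.133 to 0.825). Ptpn13, a related phosphatase gene, stood at 0.852 and 1.03 CPM in KO libraries, against 0.308 and 0.331 CPM in WT libraries (log2 difference 1.55, SE 0.52, edgeR unadjusted p = 0.0346, adjusted p = 1.00). The closest relatives of Frmd5 by name lay near 0. Frmd4a had a log2 difference of 0.41 (SE 0.53), Frmd4b -0.41 (SE 0.26), Frmd6 -0.13 (SE 0.24), Frmd7 -0.11 (SE 0.23) and Frmd8 0.05 (SE 0.19), while Frmd3 had at most 0.0308 CPM. Msn, Ezr and Rdx, which encode the classical linkers moesin, ezrin and radixin, differed by -0.17 (SE 0.30), 0.10 (SE 0.35) and -0.00 (SE 0.27) on the log2 scale. Without Frmd5 the median of the 22 other tested genes was -0.03, and their log2 differences ran from -0.60 to 2.06.

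The CRMP genes did not differ in a shared direction. Dpysl3 stood at 7.67 and 14.4 CPM in KO libraries, against 1.26 and 3.89 CPM in WT libraries, the opposite direction to Dpysl5, and the groups did not overlap. Its log2 difference was 2.09 (SE 0.67), and it did not pass over all genes (edgeR adjusted p = 1.00, unadjusted p = 0.0311, DESeq2 adjusted p = 0.182). It was 1.50 without WT library 1 and 3.14 without WT library 2. Dpysl2 stood at 13.3 and 24.6 CPM in KO libraries and at 12.2 and 26.1 CPM in WT libraries (log2 difference -0.02, SE 0.51). Crmp1 had 1.30 and 2.30 CPM in KO libraries, against 1.26 and 0.916 CPM in WT libraries (0.73, SE 0.51), and Dpysl4 had at most 0.0555 CPM. Per length, the mean level of Dpysl3 was 4.74 RPKM in KO cells, against 1.11 RPKM in WT cells, and that of Dpysl5 was 0.0720 RPKM in KO cells, against 1.14 RPKM in WT cells.

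CRMPs act downstream of semaphorin receptors in neurons, and 16 of 22 semaphorin, plexin and neuropilin genes were tested. DESeq2 called 1 of them, Nrp2, a neuropilin co-receptor gene, higher in KO cells. Nrp2 stood at 10.3 and 15.6 CPM in KO libraries, against 2.25 and 3.56 CPM in WT libraries (log2 difference 2.15, SE 0.40, DESeq2 adjusted p = 0.00163, edgeR adjusted p = 1.00). DESeq2 kept the call without KO library 1 (adjusted p = 0.0126) and lost it without KO library 2 (0.353), WT library 1 (0.616) or WT library 2 (0.102). Of 17 tubulin and stathmin genes, 12 were tested and 0 called, with 10 above 0 and a median of 0.19. Tubb4b (log2 difference 0.14, SE 0.20) and Tubb5 (0.09, SE 0.19) were highest in mean CPM. Stmn1, which encodes the microtubule-destabilizing protein stathmin, stood at 27.5 and 30.2 CPM in KO libraries, against 18.4 and 17.8 CPM in WT libraries (log2 difference 0.67, SE 0.21, edgeR unadjusted p = 0.0279, adjusted p = 1.00). Cell cycle markers also stood higher in KO cells, with 16 of 16 above 0 and a median log2 difference of 1.46. KO libraries lay above WT libraries for 13 of them (81.2%, against 9.64% of all genes tested). DESeq2 called 1 of the 16 (6.25%, against 0.558% of all genes tested), Ccnb2 (adjusted p = 0.00451), and edgeR called 0. Their sum was 408 and 304 CPM in KO libraries, against 278 and 235 CPM in WT libraries. Highest in mean CPM were Pcna (log2 difference 0.27) and Mcm5 (0.16). Among KO libraries the sum was higher in library 1 and Stmn1 in library 2. The part of the cell cycle in Stmn1 was not tested.

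**Figure D2:**
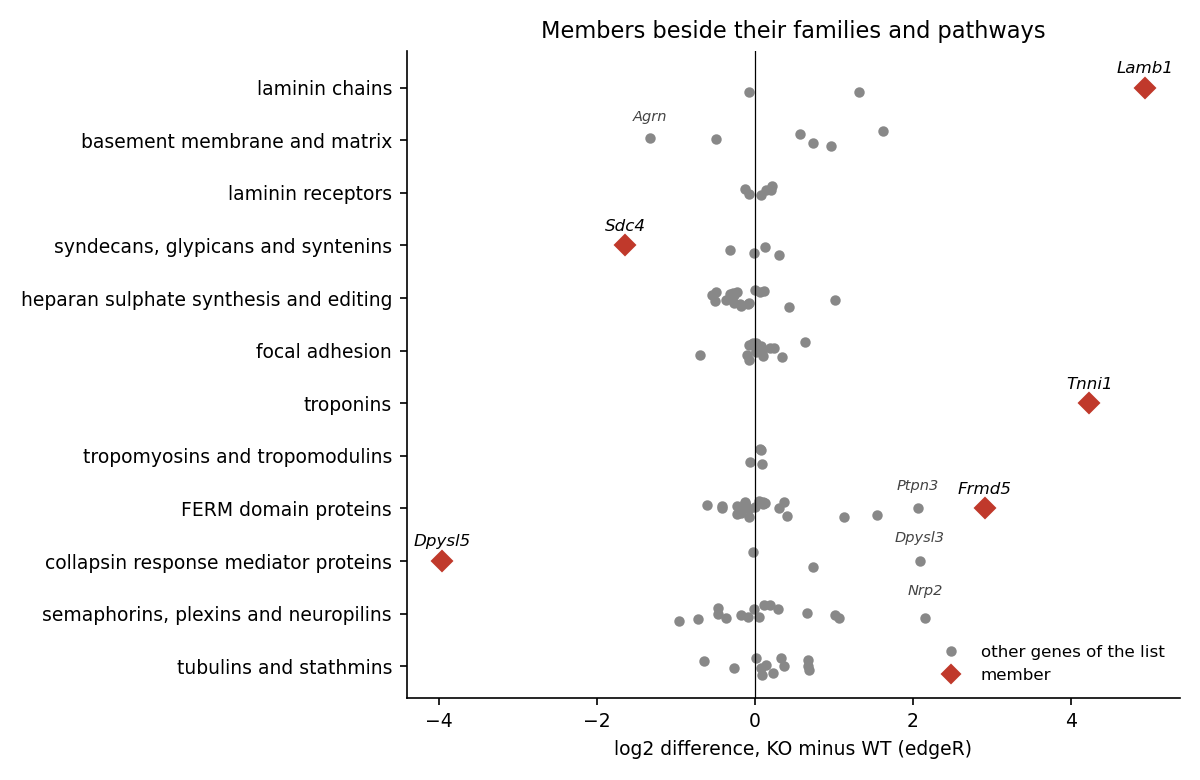
Differences by list, with the edgeR log2 difference of KO minus WT on the x axis, 1 row per family or pathway list, red diamonds for the 5 members and grey points for the other tested genes. The members, chosen by this contrast, lie from -3.96 to 4.93, and the 111 other genes lie from -1.33 to 2.15. Sdc4 (-1.64) differs less in size than Nrp2 (2.15), Dpysl3 (2.09) and Ptpn3 (2.06).

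Over the 12 family and pathway lists, 111 genes other than the members were tested. edgeR called 0 of them, with 6 at an unadjusted p under 0.05 (5 higher and 1 lower), and DESeq2 called 2, which is 1.80% against 0.558% of all genes tested. KO libraries lay above WT libraries for 21 of the 111 (18.9%, against 9.64% of all genes) and below for 11 (9.91%, against 11.6%). The median log2 difference was 0.02, beside -0.01 over all genes tested.

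Genes beside the members on the chromosome were called in no case. The nearest 3 tested genes on each side, 30 in all at 0.669 to 674 kb, had log2 differences from -0.55 to 0.68 and a median of 0.00, with 15 above 0. edgeR and DESeq2 called 0 of the 30, and 1 had an edgeR unadjusted p under 0.05. That gene was Dld, a mitochondrial dehydrogenase gene 1.92 kb after Lamb1, at 145 and 128 CPM in KO libraries, against 91.5 and 79.1 CPM in WT libraries (log2 difference 0.68, SE 0.21, edgeR unadjusted p = 0.0255, adjusted p = 1.00). Wdr76, 0.669 kb from Frmd5, had a log2 difference of -0.07 (SE 0.21). Sys1, 13.7 kb from Sdc4, had 0.13 (SE 0.27), and Slpi on its other side had 0.61 (SE 1.11). Phlda3 and Csrp1 beside Tnni1 had 0.46 (SE 0.66) and 0.09 (SE 0.27). Mapre3, which encodes a microtubule end-binding protein and lies 15.2 kb after Dpysl5, stood at 5.79 and 8.90 CPM in KO libraries, against 9.01 and 12.6 CPM in WT libraries (log2 difference -0.55, SE 0.35, edgeR adjusted p = 1.00). In the GENCODE annotation of the same assembly no other gene shares exon bases with any of the 5.

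**Figure D3:**
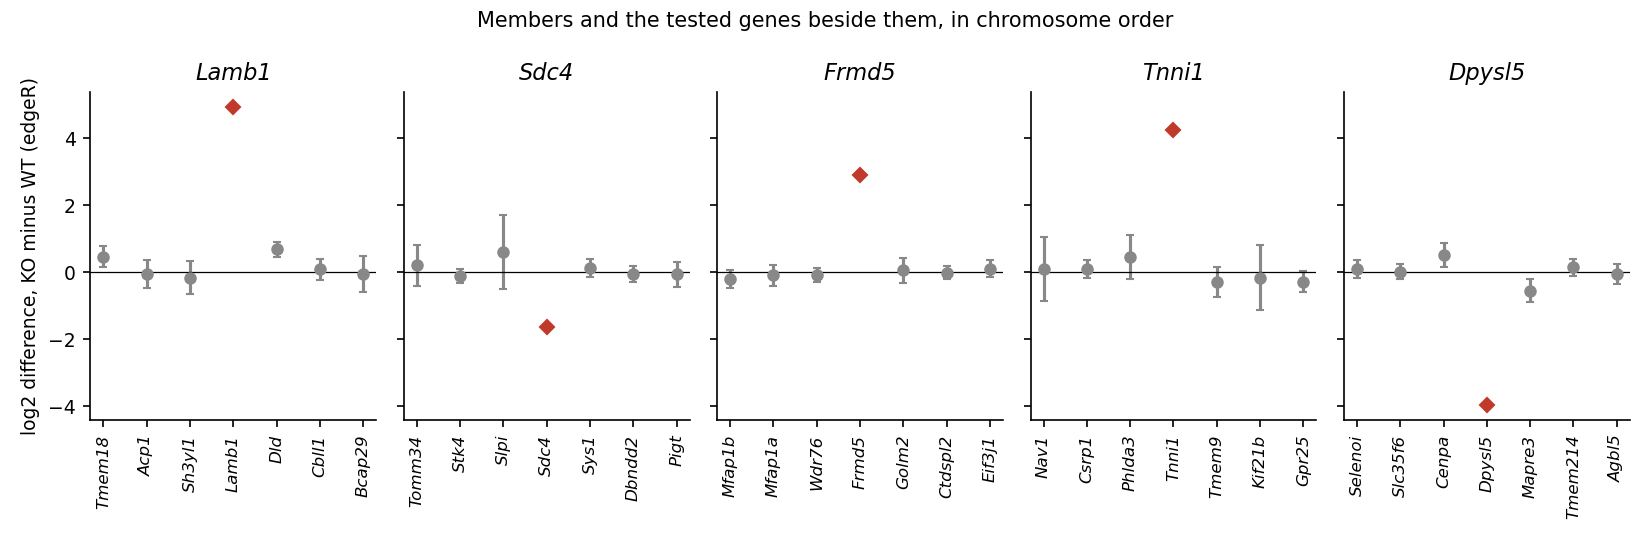
Log2 difference of KO minus WT (edgeR) for each member, drawn as a red diamond, and for the nearest 3 tested genes on each side in chromosome order, drawn as grey points with bars of 1 SE. The 30 neighbours lie from -0.55 to 0.68. Nothing is read from their distance to the members, which were chosen by this contrast.

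Markers of other cells differed between the genotypes, and their part in the 5 genes was not tested. Markers of neutrophils and their precursors summed to 466 and 102 CPM in KO libraries, against 40.3 and 2.39 CPM in WT libraries, with 14 of 14 tested above 0, no marker at 0 in a KO library and 5 of 15 at 0 in WT library 2. Erythroid markers summed to 278 and 162 CPM in KO libraries, against 50.6 and 37.6 CPM in WT libraries, with 9 of 9 above 0 and none at 0. DESeq2 called 4 of the 14 tested neutrophil markers (28.6%) and 4 of the 9 erythroid markers (44.4%), all higher in KO cells. Over all genes tested DESeq2 called 0.558%, and edgeR called 0 in either list. The neutrophil and erythroid sums were higher in KO library 1 than in KO library 2, as Tnni1 was, while Lamb1, Frmd5 and Sdc4 were higher in KO library 2. For Dpysl5 the Poisson intervals of the KO libraries overlapped (0.140 to 0.582 and 0.233 to 0.686 CPM). Neuron markers summed to 5.28 and 7.32 CPM in KO libraries, against 3.48 and 2.67 CPM in WT libraries, with 7 of 10 below 1 CPM in every library and Nefm without a count. Stromal and reticular markers, from cells that make matrix, summed to 1.60 and 2.80 CPM in KO libraries, against 0.707 and 1.32 CPM in WT libraries. Col1a2 was the largest part, with 1.227 and 2.412 CPM in KO libraries, against 0.3075 and 0.8653 CPM in WT libraries. Of these markers 11 of 12 were below 1 CPM throughout, and Cxcl13, Madcam1, Ccl19 and Lum had no count. Endothelial markers, apart from Pecam1 (84.9 and 119 CPM in KO libraries, against 69.5 and 89.2 CPM in WT libraries), were low, with 10 of 12 below 1 CPM and Emcn and Cldn5 at 0. Megakaryocyte and platelet markers summed to 102 and 89.5 CPM in KO libraries, against 84.3 and 71.4 CPM in WT libraries. Most of that sum was Gp1bb (91.09 and 74.45 CPM in KO libraries, against 68.52 and 53.55 CPM in WT libraries). Of the 5 tested 3 had a log2 difference above 0, while Gp1ba (-1.41) and Itgb3 (-0.44) were lower in KO cells.

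B and plasma cell markers, given because an immunoglobulin segment had the profile nearest to Lamb1, summed to 694 and 412 CPM in KO libraries, against 423 and 338 CPM in WT libraries. Among KO libraries this sum was higher in library 1, while Lamb1 and the segment itself, Igkv17-121, were higher in library 2. A sum over the list cannot show the level of a single segment, and the part of B and plasma cells in Lamb1 was not tested. Macrophage and monocyte markers summed to 1300 and 821 CPM in KO libraries, against 1440 and 1220 CPM in WT libraries. Most of that sum was Ly6c2 (909 and 769 CPM in KO libraries, against 1281 and 1181 CPM in WT libraries), while 11 of the 12 tested had a log2 difference above 0, with a median of 0.68. Lyz2 stood at 257 and 18.5 CPM in KO libraries, against 92.7 and 3.31 CPM in WT libraries. T cell markers summed to 309 and 163 CPM in KO libraries and to 230 and 176 CPM in WT libraries, and those of other innate lymphoid cells to 70.5 and 137 CPM in KO libraries, against 137 and 158 CPM in WT libraries. Of 10 tested T cell markers 4 had a log2 difference above 0, with a median of -0.08. Trbc2 (-0.24) and Trbc1 (-0.16) were highest in mean CPM among them. DESeq2 called 1 of the 10, Trac, at 93.9 and 36.05 CPM in KO libraries, against 5.87 and 8.30 CPM in WT libraries (log2 difference 3.20, DESeq2 adjusted p = 7.04e-06, edgeR adjusted p = 1.00). Of 8 tested markers of other innate lymphoid cells 2 had a log2 difference above 0, with a median of -0.26. DESeq2 called 2 of the 8 lower in KO cells, Il7r (log2 difference -3.12, DESeq2 adjusted p = 1.68e-05, edgeR adjusted p = 1.00) and Kit (-2.55, DESeq2 adjusted p = 0.000792, edgeR adjusted p = 1.00).

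**Figure D4:**
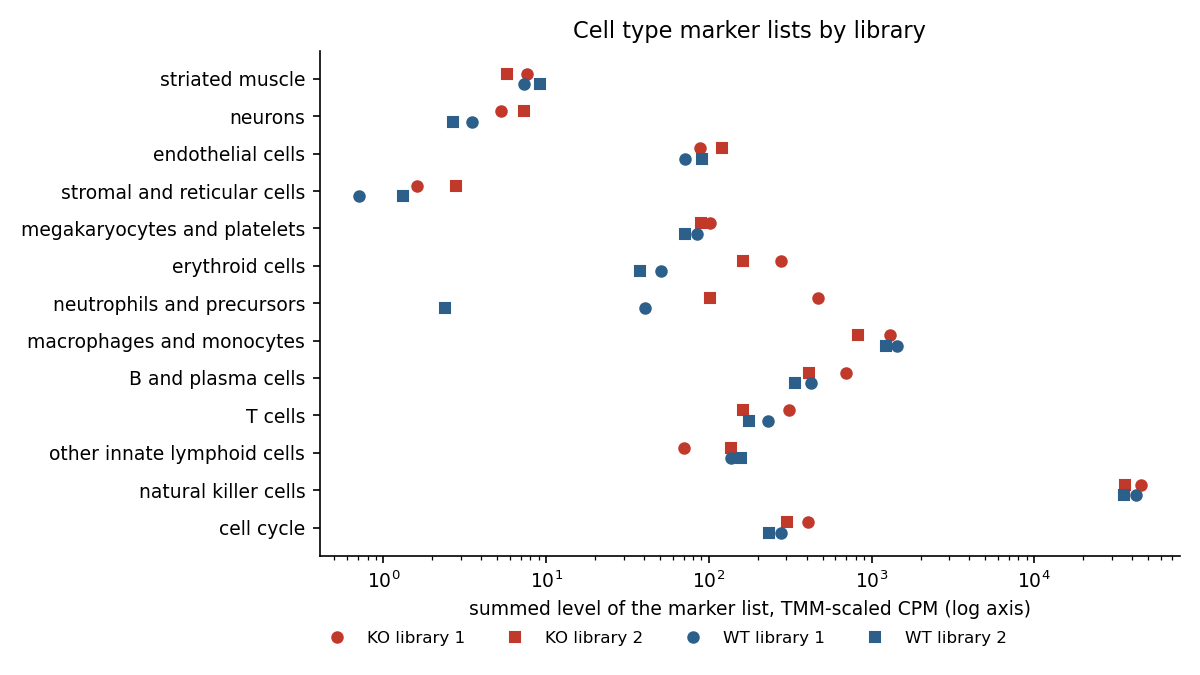
Summed level of each cell type marker list in every library, in TMM-scaled CPM on a log axis, KO libraries in red above WT libraries in blue, circles for library 1 and squares for library 2. NK cell markers lie between 35400 and 45100 CPM, and neutrophil and erythroid sums are higher in both KO libraries.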

How the data were processed

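RNA of sorted spleen NK cells from 2 KO and 2 WT mice was sequenced as paired-end TruSeq libraries, per the labels' protocols. The deposited values are whole-number counts per Entrez gene with a gene length, per the file headers. For these counts the submitters' processing notes name featureCounts and the mm10 build. The aligner, versions and strand setting are not given in the sources used here. Of 26611 gene numbers 25275 had a symbol in the RefSeq table (GRCm38.p6, the mm10 assembly), and genes without one held 1.23% of the counts. Series and sample files held the same counts.

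The 5 genes, the gene lists and the tests were chosen with earlier results of these data known. A minimum count of 10 in filterByExpr left 12723 genes. KO and WT were compared by edgeR's quasi-likelihood test (version 4.0.16, run under R 4.3.3) on TMM-scaled libraries, with robust dispersion, genotype as sole factor and Benjamini-Hochberg adjustment over all genes, and p under 0.05 called. It was checked on simulated counts of a fixed dispersion without a library-number effect. That check does not show how the test behaves on libraries that share such an effect. SE is the log2 difference over the root of F. All tests are two-sided. Named genes were the 5 members, the families that hold them, called or most expressed genes of the other lists, neighbours, nearest profiles and chosen markers, and Ptpn13, Stmn1, Col1a2, Trac, Il7r, Kit and a few further genes were named after their values were seen. Lists got no set test. Alternatives were DESeq2 1.42.0, voom (limma 3.58.1), other scalings, filters and prior count, a replicate block and leaving out each library.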

Additional observations from a re-analysis of the deposited data

How the results depend on the processing

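No member difference turned its sign in 84 recomputed values. Nothing is read from that, because the members were chosen for large differences between these same libraries. Of the 84 values, 78 moved by less than 1 SE of the edgeR difference over all 4 libraries. The 6 that moved further were Lamb1 without KO library 2, Frmd5 without WT library 1 and Tnni1 without KO library 1, each in edgeR and DESeq2. That SE was 0.99 for Lamb1, 0.79 for Frmd5 and 0.40 for Tnni1. With each library left out in turn, the log2 difference of KO minus WT ran in edgeR from 3.29 to 5.68 for Lamb1, from -1.75 to -1.50 for Sdc4, from 2.18 to 4.04 for Frmd5, from 3.78 to 4.60 for Tnni1 and from -4.17 to -3.77 for Dpysl5, and in DESeq2 the highest values were 5.71 for Lamb1 and 4.08 for Frmd5 and the lowest for Tnni1 was 3.80. Lamb1 did not pass a filter of 5 CPM in 2 libraries. The count of all genes called by edgeR was 0, but 35 with no filter on low counts and 0 to 53 with a library left out, and it was 71 with DESeq2 (52 without KO library 1, 74 without KO library 2, 50 without WT library 1 and 34 without WT library 2). Of the genes of the family and pathway lists, edgeR called 0, or 2 with no filter (Nrp2 and Ptpn3), and DESeq2 called 2, or 0 to 1 with a library left out. These fits leave a genotype with 1 library, assumed to vary like the other. The labels do not say that the replicate number pairs animals, although libraries with the same number deviated together (r = 0.728 across genes). With a replicate block edgeR called 221 genes and DESeq2 240, and 7 list genes in either tool, namely Agrn, Dpysl3, Emilin2, Hpse, Lamc1, Nrp2 and Ptpn3. Of these, Agrn (edgeR adjusted p = 0.00772), Dpysl3 (0.0033), Lamc1 (0.0019), Emilin2 and Hpse were called by neither tool over all 4 libraries without the block. DESeq2 without each library and with the block was added after seeing the data. WT counts of 15 for Lamb1 and KO counts of 9 and 15 for Dpysl5 limit the size of those differences.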
